A study of Homo sapiens with 9 samples.

Results

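The clusters of miR-192, miR-215 and miR-194 are a pair of loci that each carry 2 miRNA hairpins, hsa-mir-194-2 with hsa-mir-192 on chromosome 11 and hsa-mir-194-1 with hsa-mir-215 on chromosome 1. These 4 rows of a table of 1485 hairpins were taken by name. They had been chosen by their measured count ratio between neighbours, which differed in libraries from cells given siRNAs against ERH, so every difference between siERH and control libraries in these rows is given as a description, without a test. ERH is a small nuclear protein that binds DGCR8, the partner of the nuclease DROSHA in the complex that cuts miRNA hairpins out of primary transcripts.

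Small RNA was sequenced from 2 human cell lines. HEK293E, which derives from the human embryonic kidney line HEK293, gave 7 libraries. Replicates 1 and 2 each held the control siRNAs siGFP and siControl and the siRNA siERH-3, and only replicate 2 held siERH-5. These cells were transfected by lipofection on day 0 and again on day 3 and were harvested on day 5. K562, a leukaemia line with erythroid features, gave 1 siGFP and 1 siERH-5 library, from cells electroporated once and harvested on day 4. Every library, controls included, thus came from siRNA-treated cells, and no untransfected cells were among them. The libraries held 2609929 to 3320017 counts each. ERH mRNA is not measured in such libraries, so the depth of the knockdown was not checked. The labels number the replicates without saying that they were separate cultures, and p-values then measure only the spread between these samples. Of 6 blood hairpins used as markers, none was at 0 in any library, and their summed counts were 391804 to 478964 in K562 and 5294 to 9431 in HEK293E. This sum includes the nearly equal rows of hsa-mir-486-1 and hsa-mir-486-2, at 2360 to 4523 and 2355 to 4520 counts in HEK293E. The summed counts of 5 epithelial hairpins were 1116 to 2203 in HEK293E and 595 to 1065 in K562.

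As background, miR-192 and miR-215 carry the same seed, the stretch near the 5′ end that pairs with target mRNAs, and are treated as 1 family with shared targets, many of them in the cell cycle. Each is transcribed together with a copy of miR-194, which has another seed and other targets. The miRNAs of both loci are abundant in gut, liver and kidney epithelium, where HNF1 and HNF4 factors drive them, and p53 is known to raise the family. From each primary transcript DROSHA releases the hairpins, and DICER1 then trims them to the mature strands.

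The mature strands are shown because they set what the count table can tell apart. Sequences are from RefSeq (GRCh38.p14), 5′ to 3′, with the seed, bases 2 to 8, in capitals.
hsa-miR-192-5p: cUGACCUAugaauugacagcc
hsa-miR-215-5p: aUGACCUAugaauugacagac
hsa-miR-194-5p: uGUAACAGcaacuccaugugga
hsa-miR-192-3p: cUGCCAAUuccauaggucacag
hsa-miR-215-3p: uCUGUCAUuucuuuaggccaaua
hsa-miR-194-3p: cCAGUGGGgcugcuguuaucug

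The 5p strands of miR-192 and miR-215 differed at 2 of 21 positions, C1A and C20A (position 1 is the 5′ end of miR-192-5p, whose base is written first). Both differences lie outside the seed. Among the 2545 mature miRNAs in the RefSeq table, no other had the seed UGACCUA. The 5p strand of miR-194 was identical from both loci, with 0 differences over 22 bases, and its seed GUAACAG was also found in no other mature miRNA of the table. The 3p strands had seeds of their own. The 3p strand of miR-194 shown is that of hsa-mir-194-2.

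The hairpins are shown with the annotated mature arms in capitals, in the order in which they are transcribed at each locus, because the neighbours were compared with each other.
hsa-mir-194-2: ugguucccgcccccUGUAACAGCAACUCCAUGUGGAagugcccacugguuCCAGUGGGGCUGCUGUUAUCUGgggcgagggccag
hsa-mir-192: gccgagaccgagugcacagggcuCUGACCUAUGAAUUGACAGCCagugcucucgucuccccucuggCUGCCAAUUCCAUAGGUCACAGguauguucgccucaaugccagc
hsa-mir-194-1: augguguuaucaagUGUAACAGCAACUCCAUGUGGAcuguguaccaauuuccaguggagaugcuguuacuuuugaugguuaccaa
hsa-mir-215: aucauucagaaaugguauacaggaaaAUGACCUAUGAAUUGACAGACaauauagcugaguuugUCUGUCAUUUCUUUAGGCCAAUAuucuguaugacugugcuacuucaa

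All 4 hairpins lie on the minus strand (GRCh38). hsa-mir-194-2 is at chr11:64891355-64891439 and hsa-mir-192 at chr11:64891137-64891246, downstream of it, with 5′ ends 193 bases apart. GENCODE 29 places both inside 1 exon of the long non-coding RNA gene MIR194-2HG, chr11:64889560-64893167, on the same strand. hsa-mir-194-1 is at chr1:220118157-220118241 and hsa-mir-215 at chr1:220117853-220117962, downstream of it, with 5′ ends 279 bases apart. These lie within the span of the protein-coding gene IARS2, which encodes the mitochondrial isoleucyl-tRNA synthetase, on its opposite strand and in no exon of it. In both loci the miR-194 hairpin is thus the upstream one and the hairpin of miR-192 or miR-215 follows.

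**Figure D1:**
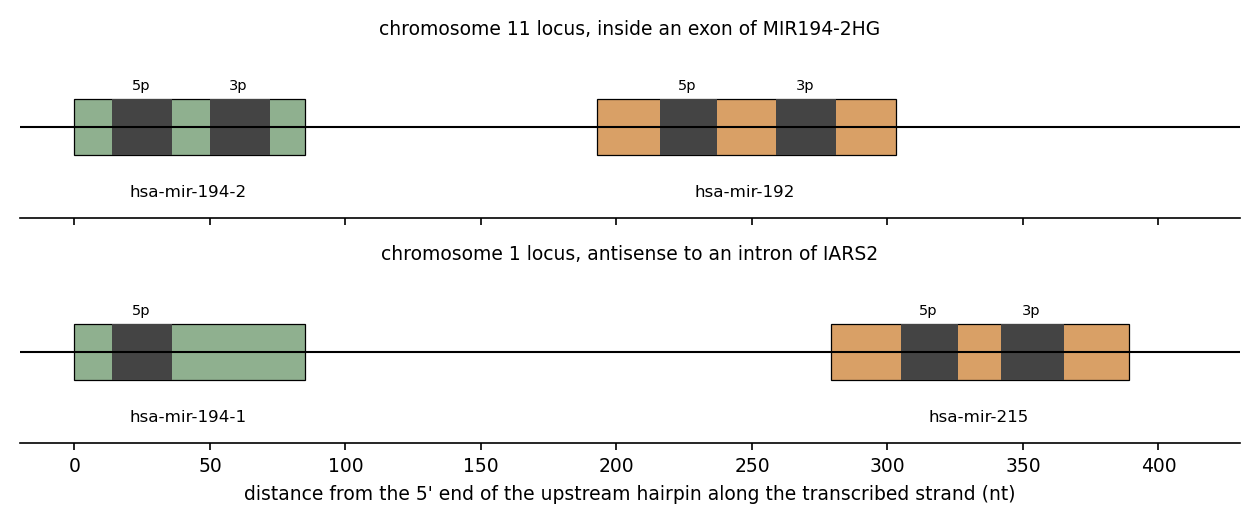
The hairpins of each locus are drawn as boxes by their distance in bases along the direction of transcription, with mature arms marked. In both loci the miR-194 hairpin comes first, and the 5′ ends are 193 bases apart on chromosome 11 and 279 bases on chromosome 1.

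The loci share the order of their hairpins and the miR-194-5p strand, and differ in base composition. GC content was 57.3% in hsa-mir-192 and 62.4% in hsa-mir-194-2 on chromosome 11, against 34.5% in hsa-mir-215 and 41.2% in hsa-mir-194-1 on chromosome 1, with a median of 50.8% over 1480 annotated hairpins. Over the aligned hairpins, 54.9% of columns were identical between hsa-mir-192 and hsa-mir-215, and 66.3% between the copies of miR-194. The predicted minimum free energy (RNAfold) was -39.0 kcal/mol for hsa-mir-192, -49.6 for hsa-mir-194-2, -33.0 for hsa-mir-215 and -38.4 for hsa-mir-194-1, where the median hairpin had -38.4. The predicted terminal loops differed between upstream and downstream hairpins. Both downstream hairpins had large ones, 16 bases in hsa-mir-192 and 11 in hsa-mir-215, and both miR-194 hairpins small ones, 4 bases in hsa-mir-194-2 and 6 in hsa-mir-194-1. The median over 1438 hairpins with 1 loop was 6, and 2.5% had a loop of 16 bases or more and 17.1% one of 11 or more. In the 14 bases before the 5p arm, the hairpins differed little, with 3 unpaired bases in hsa-mir-192 and 2 in each of the others, beside a median of 3 over 277 hairpins. The motif CNNC, searched on the transcribed strand only in the 22 bases after the 3p arm, was present in hsa-mir-192 and hsa-mir-215 and in 76.4% of the 72 hairpins with such a window. For the miR-194 hairpins no such window was examined.

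Because miR-194-5p is the same from both loci, its reads cannot be assigned to one of them. The deposited rows of hsa-mir-194-1 and hsa-mir-194-2 were nearly the same in every library: hsa-mir-194-2 exceeded hsa-mir-194-1 by 4 to 190 counts. The excess was 0.346 to 2.76% of the hsa-mir-194-2 count in the control and 2.50 to 4.08% in the siERH libraries of HEK293E, and 3.89% and 4.62% in K562 with siGFP and siERH-5. The sources do not state whether a shared read was counted in both rows or divided between them. If divided, the level of miR-194 would be the sum of both rows, and ratios and shares against 1 row would hold for that row only, while differences between libraries would hardly move. Values given for one row are in either case close to a repeat of the other. The rows were read as 1 measurement of miR-194, and the ratios of miR-192 and of miR-215 to it share that measurement.

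In HEK293E, miR-192 was the member with the largest difference between siERH and control libraries. Its levels are given in counts per 1e+06 scaled by the trimmed mean of M-values (TMM CPM). They were 511 and 504 in the siGFP libraries (replicates 1 and 2), 571 and 525 in siControl, 176 and 159 in siERH-3, and 200.3 in siERH-5. The control values lay close together and every siERH library was far below all of them. The means were 528 ± 29.9 (SD, n = 4) and 178 ± 20.8 (SD, n = 3), a 2.96-fold lower level, and the edgeR estimate was a log2 fold change of -1.57 ± 0.17 (SE). This value was the 23rd lowest of the 773 hairpins that averaged 10 counts or more. In order of counts, hsa-mir-192 stood at places 193 to 197 of 1485 in the control libraries and at places 253 to 268 in the siERH libraries.

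miR-215, its seed mate, was less abundant and more variable. Its levels were 175 and 140 TMM CPM in siGFP, 107 and 114 in siControl, 72.0 and 58.9 in siERH-3, and 125 in siERH-5. Both siERH-3 libraries were below every control, while the siERH-5 library lay above both siControl libraries, so the groups overlapped. The means were 134 ± 31.0 (SD, n = 4) and 85.2 ± 34.8 (SD, n = 3), and the log2 fold change was -0.65 ± 0.29 (SE). Without the siERH-5 library the log2 fold change was -1.02.

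miR-194 differed in the other direction, relative to the other hairpins of each library. The row of hsa-mir-194-2 had 333 and 488 TMM CPM in siGFP, 418 and 606 in siControl, 688 and 695 in siERH-3, and 871 in siERH-5. The row of hsa-mir-194-1 had 327 and 486 in siGFP, 411 and 589 in siControl, 671 and 667 in siERH-3, and 842 in siERH-5. All siERH libraries exceeded all controls in both rows, and siERH-5 was the highest, but the controls spread widely. With either control siRNA both rows were higher in replicate 2 than in replicate 1, and the SD of the controls includes this difference. For hsa-mir-194-2 the means were 461 ± 116 (SD, n = 4) and 751 ± 104 (SD, n = 3), 1.63-fold higher, with a log2 fold change of 0.71 ± 0.21 (SE). For hsa-mir-194-1 the log2 fold change was 0.68 ± 0.21 (SE).

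**Figure D2:**
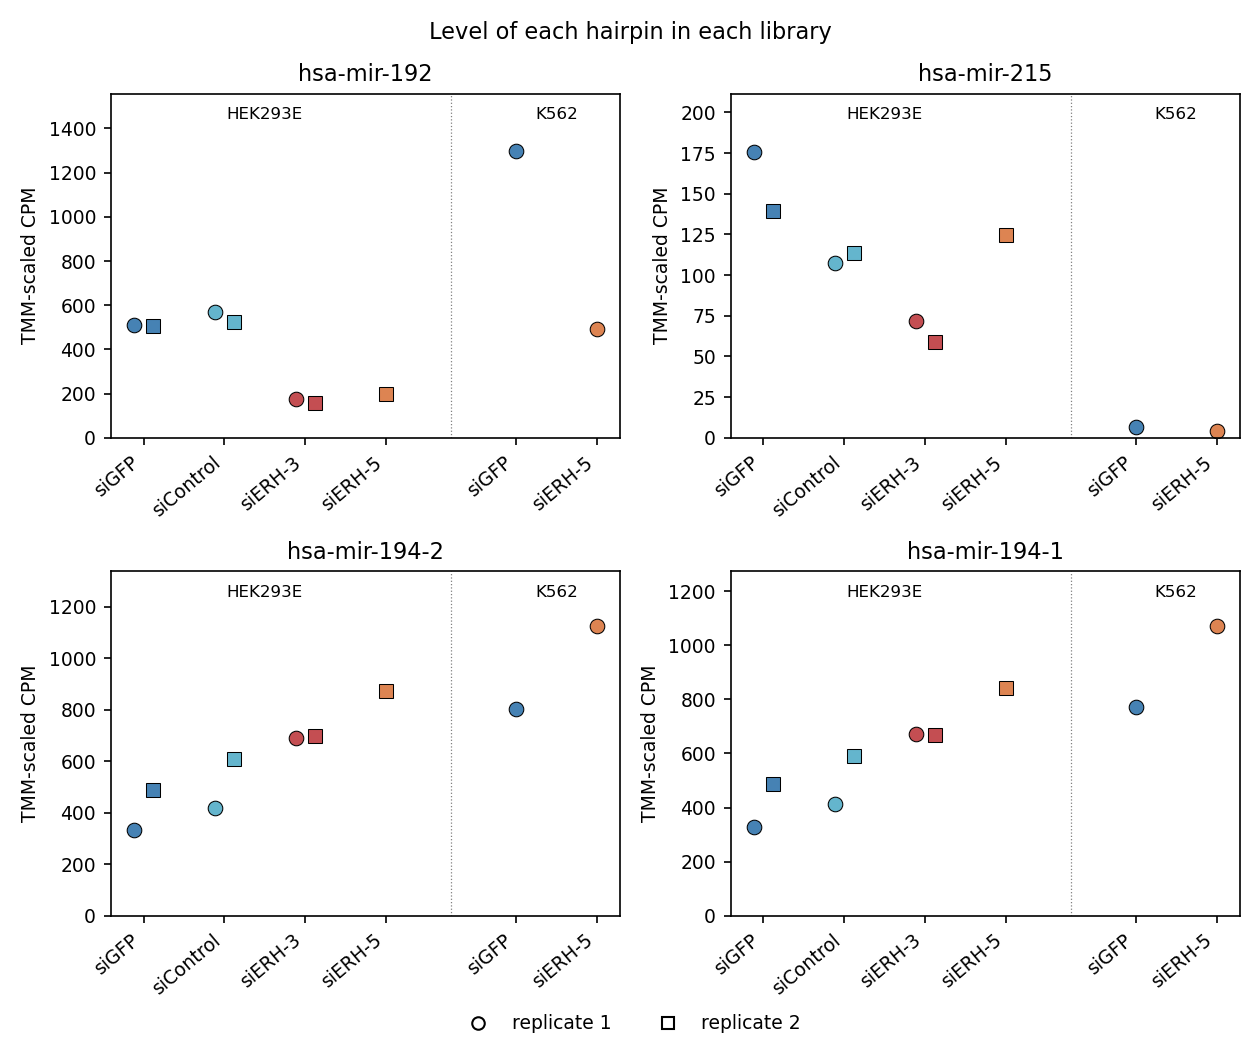
Each panel plots 1 hairpin, with the level in TMM CPM on the y axis from 0 and the siRNA and cell line on the x axis; each point is 1 library, with circles for replicate 1 and squares for replicate 2. In HEK293E the siERH points of hsa-mir-192 (159 to 200.3) lie below all control points (504 to 571), those of both miR-194 rows lie above theirs, and those of hsa-mir-215 overlap the controls.

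Among all 773 hairpins, 40.0% passed edgeR's quasi-likelihood test at a Benjamini-Hochberg adjusted p under 0.05 between siERH and control libraries, 16.2% lower and 23.8% higher. All siERH libraries were below all controls for 19.1% of the hairpins and above them for 25.5%. These contrasts chose the members, so the outcome of the test is not given for their rows. Within replicate number 1 the siERH to control ratio of mean CPM was 0.324 for hsa-mir-192, 0.51 for hsa-mir-215 and 1.83 for hsa-mir-194-2. Within number 2 it was 0.349, 0.725 and 1.43. The directions were the same in both, but these libraries chose the members, so this is a description and no separate support. For hsa-mir-215 the value within number 2 averages siERH-3 (58.9 TMM CPM) and siERH-5 (125). The controls there were 140 in siGFP and 114 in siControl.

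Over all hairpins, the median log2 fold change was -0.01 with TMM and 0.19 with library totals. Both scalings set a level against the other hairpins of its library, and the spike-in RNAs added to the samples were not used. A shift of all hairpins together would thus not be seen. Higher and lower levels, and hairpins that rose or fell, are meant in this relative sense. Relative to that median, hsa-mir-192 was at -1.56 with TMM and -1.57 with library totals, hsa-mir-215 at -0.64 and -0.68, and hsa-mir-194-2 at 0.72 under both. Removing a trend on hairpin GC content gave -1.49 for hsa-mir-192, -1.31 for hsa-mir-215, 0.83 for hsa-mir-194-2 and 0.25 for hsa-mir-194-1. The last pair of values differs although the counts are nearly equal, because this correction uses the GC content of the hairpin, and the copies differ in it.

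**Figure D3:**
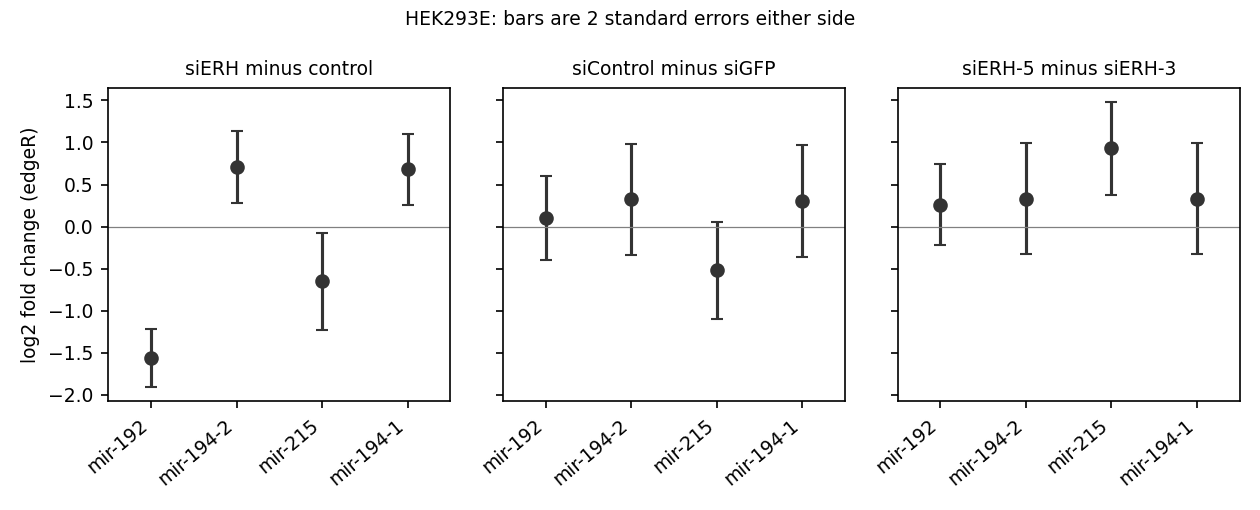
Log2 fold changes of the 4 hairpins are plotted with bars of 2 SE for siERH against control, siControl against siGFP and siERH-5 against siERH-3 in HEK293E. For siERH against control hsa-mir-192 sits at -1.57 and hsa-mir-194-2 at 0.71, while between the control siRNAs the bars of all 4 hairpins cross 0. The members were chosen on siERH against control, so the bars of that panel are a description and not a test.

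Ratios of neighbours within a library need no scaling between libraries. The count ratio of hsa-mir-192 to hsa-mir-194-2 was 1.54 and 1.03 in siGFP, 1.37 and 0.866 in siControl, 0.255 and 0.229 in siERH-3, and 0.230 in siERH-5. The rows were thus near parity in the control libraries, and the hsa-mir-194-2 row had about 4 counts for each of hsa-mir-192 in all siERH libraries, with no overlap. On the log2 scale the mean ratio was 0.23 ± 0.38 (SD, n = 4) in controls and -2.07 ± 0.09 (SD, n = 3) with siERH, a difference of -2.30, or 4.93-fold. The difference was -2.51 within replicate number 1 and -2.05 within number 2. As a share of the counts of both neighbours, hsa-mir-192 made up 46.4 to 60.6% in control and 18.6 to 20.3% in siERH libraries. The 95% Wilson intervals of single libraries reached from 44.6 to 62.3% over the controls and from 17.2 to 21.8% over the siERH libraries. Such intervals cover counting error only.

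At the chromosome 1 locus, the count ratio of hsa-mir-215 to hsa-mir-194-1 was 0.536 and 0.287 in siGFP, 0.260 and 0.193 in siControl, 0.107 and 0.0883 in siERH-3, and 0.148 in siERH-5. All siERH libraries were below all controls, with siERH-5 closest to them. The mean log2 ratio was -1.75 ± 0.62 (SD, n = 4) in controls and -3.16 ± 0.38 (SD, n = 3) with siERH, a difference of -1.41, or 2.65-fold. Within replicate numbers 1 and 2 it was -1.80 and -1.04. Since the numerator overlapped between the groups and the denominator did not, and since the denominator holds reads that may come from chromosome 11, this ratio does not describe the chromosome 1 transcript alone.

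The members of the seed family were also set against each other. The count ratio of hsa-mir-192 to hsa-mir-215 was 2.92 and 3.61 in siGFP, 5.33 and 4.62 in siControl, 2.44 and 2.70 in siERH-3, and 1.61 in siERH-5. The siERH values were all below the control values, and siGFP replicate 1 was the nearest control. The mean log2 ratio was 2.00 ± 0.38 (SD, n = 4) in controls and 1.13 ± 0.40 (SD, n = 3) with siERH, a difference of -0.87, or 1.83-fold. With siERH-5 as the only siERH library it was -1.32. Taken as a sum, miR-192 and miR-215 had 662 ± 24.2 TMM CPM (SD, n = 4) in controls and 263 ± 55.3 (SD, n = 3) with siERH, 2.51-fold lower. The log2 ratio of this sum to hsa-mir-194-2, a measure that does not depend on which locus the miR-194 reads came from, was 0.56 ± 0.41 in controls and -1.52 ± 0.13 with siERH. The difference was -2.08, or 4.22-fold, and was -2.35 and -1.79 within replicate numbers 1 and 2.

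**Figure D4:**
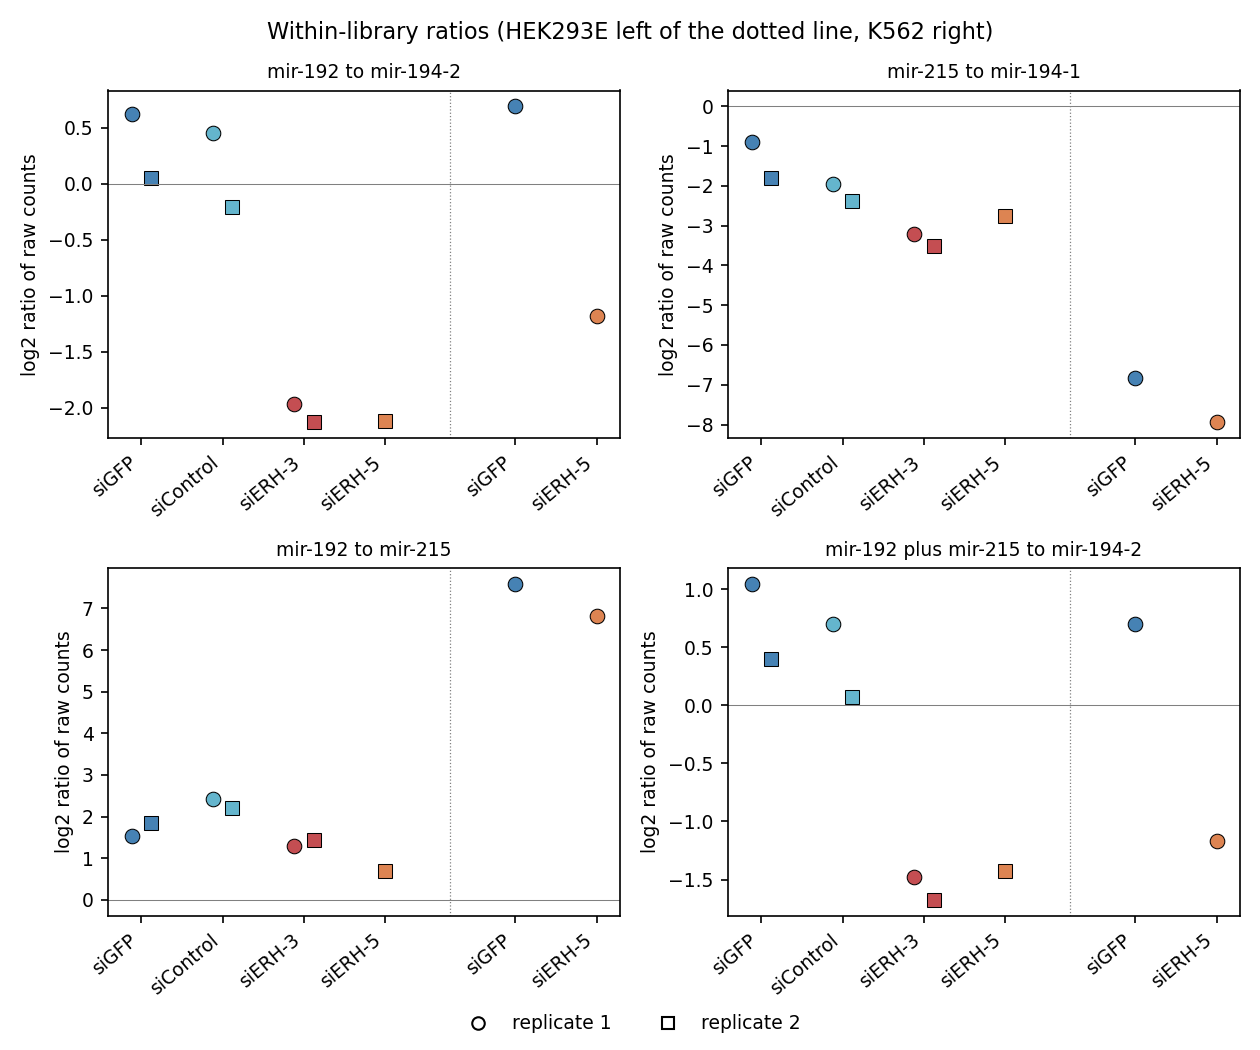
Within-library log2 count ratios are plotted for each of the 9 libraries, with the pairs of hairpins in separate panels, circles for replicate 1 and squares for replicate 2. The siERH libraries of HEK293E lie at -2.13 to -1.97 for hsa-mir-192 to hsa-mir-194-2 and the controls at -0.21 to 0.62. For this pair the K562 libraries differ in the same direction, while hsa-mir-215 had only 16 counts in each K562 library. The members were chosen for such changes in siERH libraries, so the plot is a description.

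In K562 each siRNA had 1 library, so no difference has a replicate check. hsa-mir-192 was counted 3074 times in the siGFP library and 1809 times in the siERH-5 library, which is 1298 and 494 TMM CPM and a log2 ratio of -1.39 (95% counting interval -1.47 to -1.31). hsa-mir-194-2 had 1904 and 4110 counts, 804 and 1123 TMM CPM, and a log2 ratio of 0.48. The hsa-mir-194-1 row gave 0.47. hsa-mir-215 had 16 counts in each library, a log2 ratio of -0.53 with a counting interval from -1.53 to 0.47, and a difference was not detectable at this depth. Of 646 hairpins measured in K562, 6.81% were lower with siERH-5 by 2-fold or more and 10.1% were higher by as much, and the median log2 ratio was 0.11. Of the members, hsa-mir-192 alone was past 2-fold, downward. With library totals in place of TMM the median was 0.37, and relative to the median hsa-mir-192 was at -1.50 with TMM and -1.48 with totals, and hsa-mir-194-2 at 0.37 and 0.39.

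The share of hsa-mir-192 in the counts of the chromosome 11 neighbours was 61.8% (95% Wilson interval 60.4 to 63.1%) in K562 with siGFP and 30.6% (29.4 to 31.7%) with siERH-5. The log2 ratio of the neighbours thus differed by -1.88, or 3.67-fold (counting interval -1.99 to -1.76). hsa-mir-215 was 0.867% (0.534 to 1.40%) and 0.407% (0.250 to 0.659%) of the counts of its own pair. That log2 ratio differed by -1.10 (-2.10 to -0.10), and with 16 counts on each side the whole of it came from the miR-194 count. The seed family sum was 1305 TMM CPM with siGFP and 499 with siERH-5, nearly all of it miR-192.

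The cell lines differed in the proportion of miR-192 to miR-215, with miR-192 the more abundant in both, a comparison that the choice of members did not use. By the deposited RPM (reads per 1e+06), hsa-mir-192 averaged 500.3 in the HEK293E controls and was 1176 in K562 with siGFP. hsa-mir-194-2 was 429.5 and 728, and hsa-mir-215 was 129 and 6.50. Relative to the median of all hairpins, the K562 level was higher by 2.56 (log2, TMM) for hsa-mir-192 and 2.09 for hsa-mir-194-2 and lower for hsa-mir-215, at -2.91. With library totals these were 2.42, 1.96 and -2.95. The median itself was -0.24 with TMM and -1.18 with totals. Before centring, 31.8% of 745 hairpins were lower in K562 by 2-fold or more and 22.7% were higher by as much, with TMM. Both miR-194 rows and hsa-mir-192 were among the higher and hsa-mir-215 among the lower. The log2 count ratio of hsa-mir-192 to hsa-mir-215 was 7.59 in K562 with siGFP and 1.54 to 2.41 in the HEK293E controls. The log2 ratio of hsa-mir-192 to hsa-mir-194-2 was 0.69 in K562, just above the HEK293E control range of -0.21 to 0.62. With 1 K562 library, and different transfection and harvest days, no test was made. In bulk RNA, fewer cells with a transcript and less of it per cell cannot be told apart.

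The control siRNAs were compared with each other, which the choice of members did not use. siControl minus siGFP gave log2 fold changes of 0.10 ± 0.25 (SE) for hsa-mir-192, 0.32 ± 0.33 for hsa-mir-194-2, 0.30 ± 0.33 for hsa-mir-194-1 and -0.52 ± 0.29 for hsa-mir-215. The edgeR adjusted p was 0.959 for each. Of 730 hairpins, 0.0% were called in this fit, which leaves the replicate number out. In it 24 had an unadjusted p under 0.05, and DESeq2 called 2 lower and 2 higher. With the replicate number as a block, edgeR called 133 of the 730, 61 lower and 72 higher. hsa-mir-215 was one of those lower in siControl, at -0.52 with an adjusted p of 0.00844 (0.00844 to 1.000 over its alternatives). It was lower in siControl than in siGFP in 2 of 2 replicate numbers. The other members were not called under the block. The log2 ratio of hsa-mir-215 to hsa-mir-194-1 differed by -0.81 and that of hsa-mir-192 to hsa-mir-215 by 0.61, each with an exact two-sided permutation p of 0.333. That is the smallest p that the 6 splits of these 4 libraries allow. For hsa-mir-192 to hsa-mir-194-2 the difference was -0.21 (exact permutation p = 0.667), and for the summed family to hsa-mir-194-2 it was -0.34 (exact permutation p = 0.667). This test ignores the pairing by replicate number. Within numbers 1 and 2, siControl minus siGFP was -0.17 and -0.26 for hsa-mir-192 to hsa-mir-194-2, -1.04 and -0.57 for hsa-mir-215 to hsa-mir-194-1, 0.87 and 0.35 for hsa-mir-192 to hsa-mir-215, and -0.35 and -0.33 for the summed family. Each of the 4 ratios thus had 1 sign in both pairs, and with 2 pairs or 6 splits no p under 0.05 can be reached.

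The siRNAs against ERH were compared in the same way, with 1 siERH-5 library assumed to vary like the other groups. siERH-5 minus siERH-3 gave 0.26 ± 0.24 (SE) for hsa-mir-192, 0.33 ± 0.33 for both miR-194 rows and 0.93 ± 0.28 for hsa-mir-215. Approximate intervals of 2 SE were -0.22 to 0.74 for hsa-mir-192, -0.33 to 1.00 for hsa-mir-194-2 and 0.38 to 1.48 for hsa-mir-215. For hsa-mir-215 the unadjusted p in edgeR was 0.0115 and the adjusted p 0.815, with a range of 0.0653 to 1.000 over the alternatives. This comparison rests on 1 siERH-5 library, and in simulated data of this design 12 of 200 changes of 2-fold were called, so the missing call does not show that the siRNAs act alike on hsa-mir-215. Of 773 hairpins, 0.0% were called, 46 had an unadjusted p under 0.05, and DESeq2 called 1 lower and 1 higher. The log2 ratio of hsa-mir-192 to hsa-mir-194-2 differed by -0.07 between the siRNAs, that of hsa-mir-215 to hsa-mir-194-1 by 0.60 and that of hsa-mir-192 to hsa-mir-215 by -0.68. An exact permutation test over these 3 libraries cannot give a p below 0.333. miR-192 was thus below all controls with either siRNA, and miR-215 was below all controls in the siERH-3 libraries and within their range in the siERH-5 library.

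Other neighbours give the scale of these ratios. Among hairpins on 1 strand within 1 kb and with a mean of at least 50 counts each, there were 54 neighbouring pairs, and for 38.9% of them the log2 ratios did not overlap between siERH and control libraries. The median absolute difference was 0.38, and in 10 pairs the neighbours' log2 fold changes had opposite signs. By size, hsa-mir-192 with hsa-mir-194-2 stood at place 3, at 2.30, and hsa-mir-215 with hsa-mir-194-1 at place 4, at 1.41. Both pairs were chosen for this change and share the miR-194 measurement, so their places, also in K562, are a description only. Above them were hsa-mir-6500 with hsa-mir-4421, at 4.53, and hsa-mir-132 with hsa-mir-212, at 3.25. Just below was hsa-mir-16-1 with hsa-mir-15a, at 1.40. In those 3 pairs it was the upstream hairpin that was lower with siERH, with log2 fold changes of -4.59 for hsa-mir-4421, -3.24 for hsa-mir-212 and -1.28 for hsa-mir-15a. In both loci described here it was the downstream one, with log2 fold changes of -1.57 for hsa-mir-192 and -0.65 for hsa-mir-215. For hsa-mir-215 the groups overlapped, with the siERH-5 library above both siControl libraries. Over the 54 pairs the downstream hairpin was lower relative to its neighbour in 32 and higher in 22. Within 10 kb there were 79 pairs, and the loci stood at places 4 and 10. In K562, 46 of the pairs had a mean of at least 50 counts, and hsa-mir-192 with hsa-mir-194-2 stood at place 2, at 1.88, after hsa-mir-132 with hsa-mir-212, at 3.09.

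**Figure D5:**
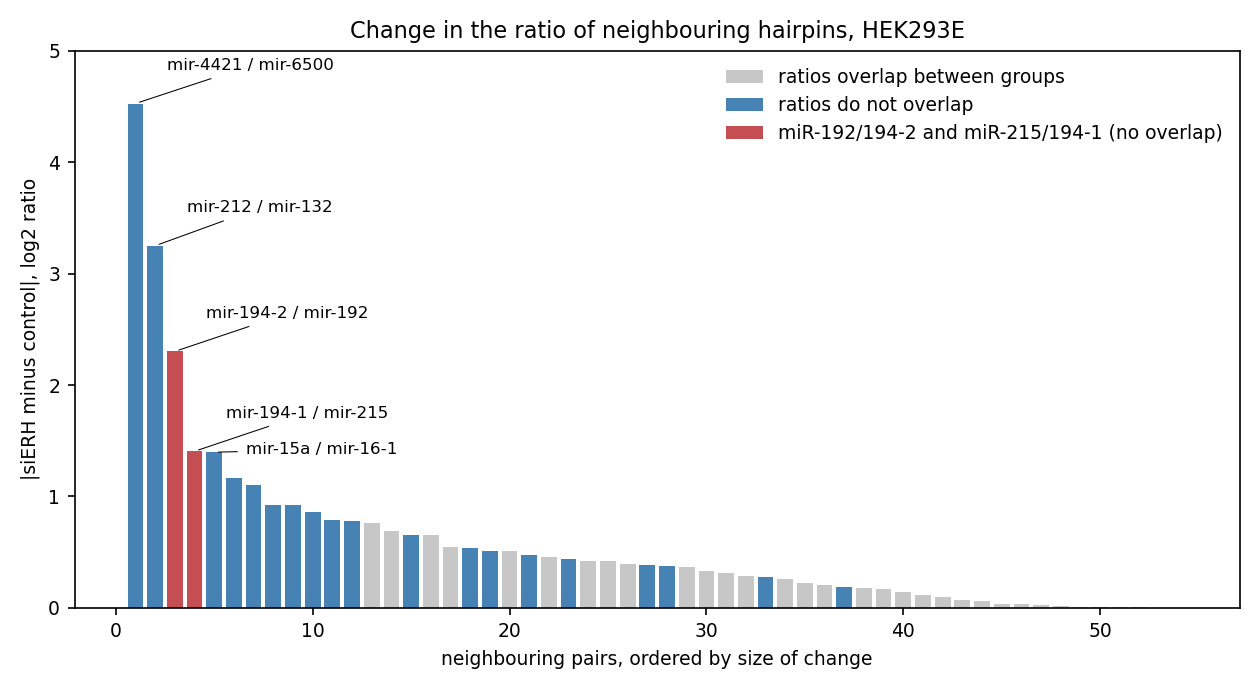
The absolute difference of the log2 ratio between siERH and control libraries is plotted for 54 neighbouring pairs in order of size, with pairs that do not overlap between groups in colour. The chromosome 11 pair stands at 2.30 in place 3 and the chromosome 1 pair at 1.41 in place 4, while the median pair is at 0.38. Both pairs were chosen for this change and share the miR-194 measurement.

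Over the 7 HEK293E libraries the level of hsa-mir-192 ran opposite to hsa-mir-194-2 (Pearson r = -0.78 of log2 TMM CPM) and with hsa-mir-215 (r = 0.73). The libraries fall into siERH and control groups, so these values describe that split. The hairpins most like hsa-mir-192 were hsa-mir-181d (r = 0.997), hsa-mir-3677 (r = 0.996) and hsa-mir-4421 (r = 0.992). The first of these had 940 ± 17.7 TMM CPM (SD, n = 4) in controls and 339 ± 16.6 (SD, n = 3) with siERH. Most like both miR-194 rows were hsa-mir-548a-1 (r = 0.985), hsa-mir-3065 (r = 0.975 with hsa-mir-194-2) and hsa-mir-3174 (r = 0.973 with hsa-mir-194-2). For hsa-mir-215 they were hsa-mir-5094 (r = 0.923), hsa-mir-4690 (r = 0.909) and hsa-mir-217 (r = 0.888).

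Other hairpins linked to p53 did not move as 1 group. Of 9 listed and tested, 5 rose with siERH, 1 fell and 3 were not called by edgeR, beside 23.8% higher and 16.2% lower among all 773 hairpins. The 9 are not independent, since hsa-mir-34b with hsa-mir-34c and hsa-mir-15a with hsa-mir-16-1 are neighbours within 1 kb. Transcripts shared over longer distances, as may hold for hsa-mir-143 with hsa-mir-145, were not examined for this list. The 5 that rose thus come from fewer than 5 loci. Their median log2 fold change was 0.72, beside -0.01 over all hairpins. Those that rose were hsa-mir-34b (1.75 ± 0.50, SE), hsa-mir-34c (1.39 ± 0.51), hsa-mir-143 (1.22 ± 0.31), hsa-mir-605 (0.91 ± 0.21) and hsa-mir-145 (0.72 ± 0.23). hsa-mir-15a fell by 1.28 ± 0.20. hsa-mir-34a, the best known p53 target among miRNAs and the most abundant of the miR-34 family in HEK293E, was at -0.09 ± 0.22 (adjusted p = 0.781). hsa-mir-107 was at -0.02 and hsa-mir-16-1 at 0.09. The count that rose was 2 after removing the GC trend. It was 3 without siGFP replicate 1, siGFP replicate 2, siERH-3 replicate 1, siERH-3 replicate 2 or siERH-5, each left out on its own.

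Hairpins enriched in liver, gut and other epithelia, where the miRNAs of both loci are abundant, gave 4 of 9 that fell, none that rose and 5 not called, with a median of -0.57. Among all 773 hairpins 16.2% were lower and 23.8% higher, with a median of -0.01. The 4 were hsa-mir-200a (-1.78 ± 0.23, SE), hsa-mir-429 (-1.11 ± 0.32), hsa-mir-200b (-0.99 ± 0.23) and hsa-mir-375 (-0.85 ± 0.20). The first 3 of these come from 1 cluster and share their transcript. hsa-mir-200c and hsa-mir-141, the other cluster of that family, were at 0.41 and 0.25, and hsa-mir-31, the most abundant on the list in HEK293E, at -0.18. With library totals 1 of the 9 rose. In K562 hsa-mir-375 was counted 268 times in the siGFP and 1289 times in the siERH-5 library, a log2 ratio of 1.63, opposite to HEK293E. hsa-mir-122, the liver miRNA, had 2 to 54 counts in HEK293E.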

How the data were processed

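Per the submitters' processing notes, cutadapt, Bowtie2, bedtools and the build hg38 were used; their versions, the handling of reads that map to several hairpins and any use of the random adapter nucleotides are not given in the sources used here. Per the labels' protocols, 18 to 30 nt fragments were gel-purified from 10 ug of total RNA mixed with 30 spike-in RNAs. The authors deposited whole-number counts per hairpin, arms not separated, and the same data as RPM. RPM was the count plus 1 over the library total plus 1485, per 1e+06, with a largest relative deviation of 1.1e-09. The 2336 blank cells were read as 0.

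Groups and replicate numbers were read from the sample titles. Hairpins that averaged 10 counts or more were scaled by TMM and fitted with edgeR's quasi-likelihood test (edgeR 4.0.16, R 4.3.3), with Benjamini-Hochberg adjustment over all hairpins tested. In K562 and between cell lines, values are log2(TMM CPM + 1). Pair ratios were compared by exact permutation tests only where the choice of members left the contrast unused. Alternatives were library totals, DESeq2 1.42.0, limma 3.58.1 on log2(RPM + 1), no filter, the replicate block, leaving out each library, and, added after the data were seen, a GC trend removed. The ratio with the summed family was also added then. Simulated 2-fold changes in 200 hairpins were called for 143 in the siERH design, 17 between control siRNAs and 12 between ERH siRNAs, and 4-fold changes for 199, 192 and 181.

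HEK293E libraries with the same replicate number in their titles had deviations from group means that correlated at 0.48 to 0.692 over 773 hairpins. The numbers were therefore taken to pair the samples. The reported fits leave this pairing out, and the replicate block is given as an alternative. Coordinates, GC content and folding (RNAfold 2.7.2) used GENCODE 29, which matched 1480 hairpin names and left 5 without a match. Named hairpins are the members, their seed mates, the 3 with the highest Pearson r to each, the 3 largest neighbouring pairs and those next to the members, and listed hairpins. From each list, up to 4 with the highest mean level are named, with any singled out after their values were seen, the called ones included. The members and lists were chosen with earlier results of these data known.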

Additional observations from a re-analysis of the deposited data

How the results depend on the processing

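No member changed its direction between siERH and control libraries under any alternative, and the log2 ratio of hsa-mir-192 to hsa-mir-194-2 stayed between -2.45 and -2.17. The alternatives reuse the libraries that chose the members, so they describe the dependence on processing only. Over all hairpins, 67 were lower with library totals, 66 with limma and 125 in the reported fit; 120 were higher with the GC trend removed, against 184. The replicate block gave 159 lower and 217 higher. Leaving out 1 library gave 76 to 130 lower and 136 to 189 higher. Between control siRNAs, 2 hairpins were lower and 2 higher both with DESeq2 and with no filter; leave-one-out fits called 0 lower and 0 to 1 higher. The replicate block called 61 lower and 72 higher there, and 1 lower and 2 higher between ERH siRNAs, where DESeq2 and no filter each gave 1 and 1. Apart from hsa-mir-215 between control siRNAs (-0.52, edgeR adjusted p = 0.00844), the block changed no member's call in these comparisons. The log2 ratio of hsa-mir-192 to hsa-mir-215 was -1.32 with siERH-5 alone. With library totals, K562 gave -1.11 for hsa-mir-192, 0.76 for hsa-mir-194-2 and 0.75 for hsa-mir-194-1, and K562 minus HEK293E gave 1.24, 0.77 and 0.74 for these and -4.14 for hsa-mir-215. The causes were not tested. The depth limits hsa-mir-215 in K562, with 16 counts in each library.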
